A study of Mus musculus with 4 samples.

Results

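The epicardial mesothelial cells of the embryonic mouse heart were 196 of the 21035 single cells with at least 500 detected genes, and were chosen by expression. A cell was taken when its muscle score, the mean of ln(1 + UMIs per 10000) over Tnnt2, Myh6, Ttn, Actn2 and Ryr2, was under 1.5 and when it held at least 1 UMI (unique molecular identifier, 1 counted transcript) of at least 3 of 7 mesothelial genes, which were Upk3b, Upk1b, Wt1, Msln, Muc16, Krt19 and Lrrn4. The study microdissected regions of wild-type CD1 mouse hearts at embryonic day 16.5 to profile the cardiac conduction system, and deposited 1 droplet library for each of 4 regions: the sinoatrial node (SAN) region, the atrioventricular node and His bundle (AVN/His) region, and the bundle branch and Purkinje fiber (BB/PF) region taken from each ventricle. All 4 groups share strain, genotype and stage, none was treated, and the labels give neither the number nor the sex of the embryos behind a library. With 1 library per region, a difference between regions has no replicate, and region, embryo and dissection cannot be told apart.

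The epicardium is the mesothelial sheet that covers the heart. It keeps epithelial features such as keratin filaments, apical polarity and cell junctions, and during development some of its cells undergo epithelial-to-mesenchymal transition and give rise to fibroblasts and mural cells. It also makes retinoic acid and growth factors that act on the myocardium, and the transcription factors Wt1, Tbx18 and Tcf21 are classical markers of the lineage.

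Epicardial cells were found in the SAN and AVN/His libraries and in neither ventricular library. They made up 171 of 2700 non-muscle cells of the SAN region, or 6.33% (95% exact binomial interval 5.44 to 7.32), and 25 of 2829 non-muscle cells of the AVN/His region, or 0.884% (0.573 to 1.30). The left ventricular library held 0 among 803 non-muscle cells, which allows a share of up to 0.374% by a floor of 3 cells (exact binomial upper bound 0.458%). The right held 0 among 1478, which allows up to 0.203% by the same floor (exact upper bound 0.249%). These intervals and limits cover counting error only.

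**Figure D1:**
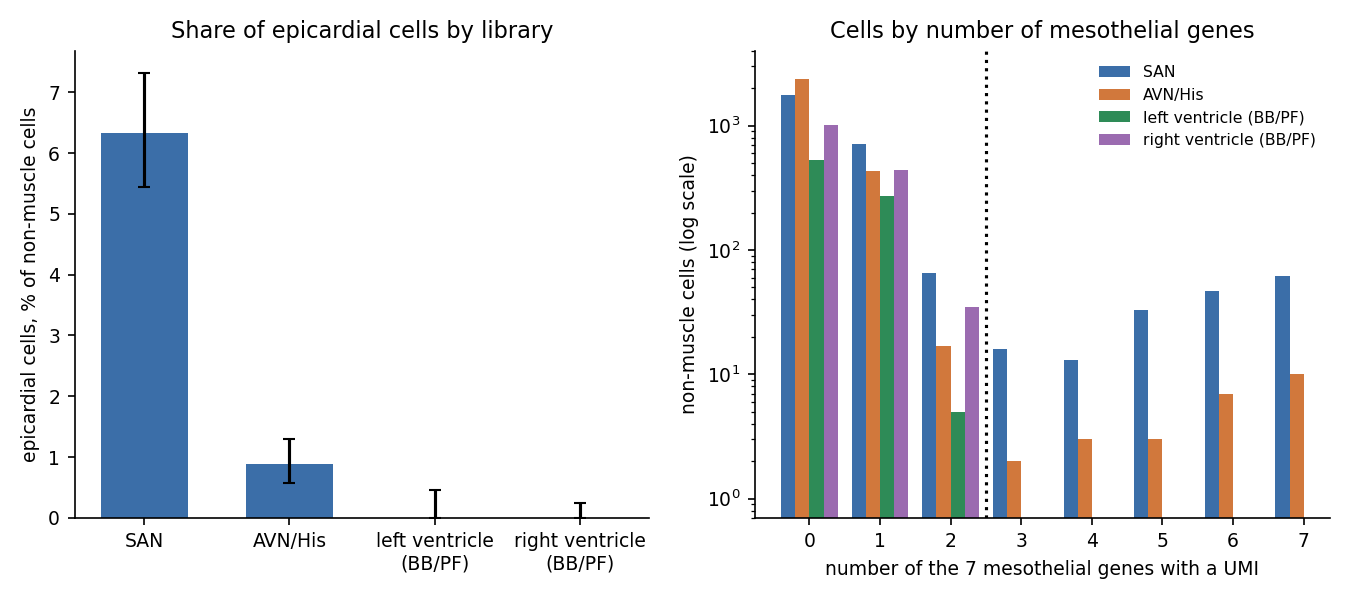
Left, epicardial cells as a percentage of non-muscle cells in each library, with bars for the share and whiskers for the 95% exact binomial interval. Right, number of non-muscle cells of each library (log scale) by how many of the 7 mesothelial genes had a UMI, with the dotted line at the limit of 3; the SAN and AVN/His counts dip at 3 and 4 genes and climb again to 62 and 10 cells with all 7, and the ventricular libraries stop at 2.

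The number of mesothelial genes per cell fell into 2 humps, and most members lay far from the limit. Among non-muscle cells of all 4 libraries, 5649 had none of the 7 genes, 1843 had 1 and 122 had 2. Of the members, 18 had 3, 16 had 4 and 162 had 5 to 7. A UMI of at least 1 of the keratins Krt7, Krt8, Krt18 and Krt14, which the rule did not use, was present in 94.4% of cells with 5 to 7 genes, 93.8% of those with 4 and 55.6% of those with 3, against 0.820% of the 122 cells just outside with 2. In the ventricular libraries all 40 cells with 2 of the genes (5 left, 35 right) carried Wt1 and Krt19, none had a keratin of that set, and all passed an endothelial gate of at least 3 of 6 genes. Their median depth was 39641 UMIs on the left and 32371 on the right, above the 9200 and 8780 of SAN and AVN/His members. The muscle limit excluded 10 further cells with at least 3 of the 7 genes, 9 from the SAN region and 1 from the AVN/His region, with muscle scores of 1.59 to 2.90. The highest score among members was 1.45. The 7 genes mark mesothelium in general, so epicardial and pericardial mesothelium cannot be told apart here.

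The genes that defined the cells had the following levels, given as a description because they chose the members. Upk3b and Upk1b, uroplakins of the apical membrane, summed to 1637 and 327 CPM (UMIs of the gene per 1000000 UMIs of the class) in SAN epicardial cells and to 1917 and 431 CPM in AVN/His epicardial cells, against at most 3.46 and 0.864 CPM in other non-muscle cells of any library. Msln, a surface glycoprotein of mesothelia, had 627 CPM in the SAN and 915 CPM in the AVN/His members. Wt1 was the least restricted of the set, with 282 and 285 CPM in SAN and AVN/His members against 30.8 to 67.1 CPM in the other non-muscle cells of the 4 libraries. A UMI of Wt1 was seen in 88.9% of SAN and 84.0% of AVN/His members, against 14.7% to 33.6% of the other non-muscle cells.

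The libraries held between 49328589 and 58029660 UMIs. Members had medians of 9200 (SAN) and 8780 (AVN/His) UMIs per cell against 7146 and 6901 in the other non-muscle cells, and 3.44% and 3.68% mitochondrial UMIs against 3.10% and 2.95%. Doublets were kept: 7 of the 196 members had a Scrublet doublet score over 0.2. Of the members, 57 also passed a fibroblast gate (at least 3 of Tcf21, Pdgfra, Dcn, Lum, Postn and Dpt), 7 an endothelial gate and 1 a mural gate. Of the barcodes, 230 occurred in more than 1 library, 4 of them in members, and no barcode was a member in both libraries. The libraries also differed in sex-linked transcripts: Xist was detected in 14.8% of SAN, 0.461% of AVN/His, 86.6% of left and 19.7% of right ventricular cells. Of SAN members, 41 had an Xist UMI and 99 a UMI of the Y-linked genes Ddx3y, Eif2s3y, Kdm5d and Uty, and of AVN/His members 0 and 19 did.

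To describe the epicardial cells beyond the genes that chose them, UMIs were summed per library and class, and the sums of members were compared with those of all other non-muscle cells from the same 2 libraries, and also with fibroblast-gated cells alone (1102 SAN and 1734 AVN/His cells that passed no other gate). Fold changes below come from edgeR with the library as a block, over 4 sums with 1 residual degree of freedom, and "rose" and "fell" stand for a Benjamini-Hochberg adjusted p under 0.05 over all genes tested. Against all other non-muscle cells, 1694 of 13390 genes rose (12.7%) and 1669 fell (12.5%), so a list with about 1 gene in 8 called in each direction is at the background. Against fibroblast-gated cells 1532 of 11912 rose (12.9%) and 1125 fell (9.44%). In the first comparison edgeR gave every gene the same spread, which makes its p-values very small even where the libraries differ, so the calls of DESeq2 on the same sums are given beside each list. DESeq2 called 839 and 557 genes in the first comparison and 843 and 385 in the second, all of them among the edgeR calls in the same direction, and the share of calls that rose in the second was 68.6% against 57.7% by edgeR. Whether the libraries came from separate animals is not stated in the labels, so these p-values cannot be read as measuring a spread between animals. In the first comparison the edgeR p-values rest on a spread shared over genes, not on each gene's own spread between the sums.

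**Figure D2:**
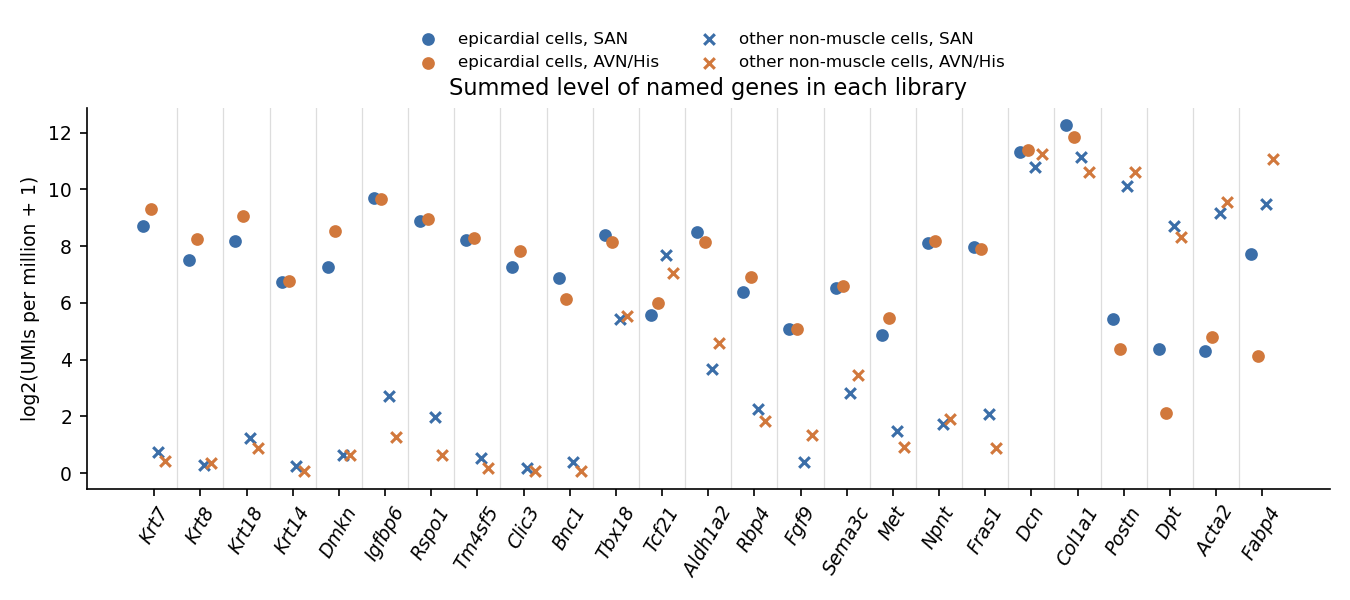
Summed level of 25 named genes, as log2(CPM + 1), in epicardial cells (circles) and other non-muscle cells (crosses) of the SAN (blue) and AVN/His (orange) libraries, with 1 point per library and class. The keratins Krt7, Krt8, Krt18 and Krt14 sit above 6 in both epicardial sums and below 2 in both other sums, while Postn and Acta2 sit lower in the epicardial sums.

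Keratins and apical junction genes were among those that separated the epicardial cells most widely. Krt7, Krt8, Krt18 and Krt14 build the intermediate filaments of simple and stratified epithelia. Krt7 had 415 and 633 CPM in SAN and AVN/His epicardial cells, against 0.682 and 0.336 CPM in the other non-muscle cells, a fitted log2 fold change of 10.02 with a standard error of 0.27 (adjusted p = 1.73e-282 by edgeR). A single cell held 57.6% of the Krt7 UMIs of the AVN/His members, while no SAN cell held more than 3.80%. Krt8 had 182 and 305 CPM in epicardial cells against 0.227 and 0.294 CPM in other cells, and Krt18 had 288 and 534 CPM against 1.36 and 0.841 CPM. Krt14 reached 106 and 109 CPM against 0.182 and 0.042 CPM. No sum of the other cells came near those of the members for any of these 4 genes. Of 22 tested keratin and junction genes 14 rose and 0 fell (DESeq2: 13 and 0), with a median log2 fold change of 2.48 beside -0.06 over all genes tested. Claudin-15 (Cldn15), a tight junction protein, had 137 and 192 CPM in epicardial cells against 3.41 and 4.88 CPM. P-cadherin (Cdh3), an adherens junction protein, had 100.3 and 103 CPM against 2.87 and 5.93 CPM. Crb2, a determinant of apical polarity, had 46.9 and 33.2 CPM against 0.227 and 0.126 CPM. The scaffold genes Tjp1 and Pard3 and the desmosome gene Jup were called in neither direction against all other cells, at 50.2 and 46.4 CPM of Tjp1 in epicardial cells against 55.3 and 56.7 CPM. E-cadherin (Cdh1) was too low to be tested, with 1.39 CPM in SAN and 0 CPM in AVN/His members. Against fibroblast-gated cells 17 of 19 tested genes of the list rose and 0 fell (DESeq2: 15 and 0). Single-library ratios were present in both libraries and pointed the same way for 16 of the 22 genes against all other cells. Against fibroblast-gated cells this held for 13 of the 19.

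Krt7, Krt8, Krt18 and Igfbp6 together span 0.738 Mb of chromosome 15 (101411043 to 102149511 in GRCm38, by GENCODE vM21). Krt8 is read from the minus strand, and Krt7 and Krt18 from the plus strand. Since these 3 keratin genes were near 0 outside the members, their start regions are shown from RefSeq (GRCm38.p6), each 300 bases long from 250 before to 50 after the start, with GC boxes (GGGCGG or CCGCCC) and TATA boxes (TATAAA or TTTATA) in capitals.
Krt7 (chr15:101412153-101412452, plus strand): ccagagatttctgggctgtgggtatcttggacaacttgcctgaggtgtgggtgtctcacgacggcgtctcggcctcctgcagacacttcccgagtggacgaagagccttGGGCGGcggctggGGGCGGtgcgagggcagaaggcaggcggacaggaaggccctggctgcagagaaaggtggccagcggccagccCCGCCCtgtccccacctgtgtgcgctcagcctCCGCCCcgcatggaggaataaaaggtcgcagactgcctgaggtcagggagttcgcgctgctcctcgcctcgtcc
Krt8 (chr15:102004293-102004592, minus strand): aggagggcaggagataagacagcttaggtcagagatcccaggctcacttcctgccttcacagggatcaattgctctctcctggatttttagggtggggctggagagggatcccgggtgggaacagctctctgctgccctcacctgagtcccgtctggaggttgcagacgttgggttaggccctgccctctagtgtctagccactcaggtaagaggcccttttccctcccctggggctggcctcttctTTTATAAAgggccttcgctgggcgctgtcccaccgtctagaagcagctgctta
Krt18 (chr15:102027966-102028265, plus strand): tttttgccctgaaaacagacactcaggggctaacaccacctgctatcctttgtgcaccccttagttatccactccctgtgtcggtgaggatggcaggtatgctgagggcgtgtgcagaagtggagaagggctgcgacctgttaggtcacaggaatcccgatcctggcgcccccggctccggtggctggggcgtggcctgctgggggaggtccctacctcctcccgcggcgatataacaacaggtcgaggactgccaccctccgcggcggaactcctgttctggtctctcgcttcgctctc
The Krt7 window held 4 GC boxes and no TATA box, and the Krt18 window held neither. The Krt8 window held overlapping TATA matches on both strands and no GC box. These matches began at -3 and -1 from the annotated start and so overlapped the start itself. Of all 32851 windows of this length in the table, 35.7% held a GC box and 13.6% a TATA box, so the 3 keratin genes do not share these letters and no element is singled out here.

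Genes for mesothelial surface and secreted proteins rose almost as a whole. Of 25 tested, 22 rose and 1 fell against other non-muscle cells (DESeq2: 19 and 1), with a median log2 fold change of 4.74. Igfbp6, which binds insulin-like growth factors, had 836 and 809 CPM in SAN and AVN/His epicardial cells against 5.64 and 1.43 CPM. Rspo1, a secreted enhancer of Wnt signaling, had 469 and 494 CPM against 2.96 and 0.546 CPM, a fitted log2 fold change of 8.29 with a standard error of 0.24 (adjusted p = 1.95e-238 by edgeR). Its members were evenly positive, with a Rspo1 UMI in 92.4% of SAN and 100% of AVN/His epicardial cells. Dmkn (dermokine), a secreted epithelial protein, had 152 and 371 CPM against 0.546 CPM in both other sums. The complement component C3 had 61.3 and 139 CPM against 0.728 and 0.715 CPM. Podoplanin (Pdpn), a mucin-like membrane protein, had 194 and 308 CPM against 8.01 and 11.3 CPM, and ezrin (Ezr), which links the apical membrane to actin, had 399.9 and 590 CPM against 13.7 and 12.5 CPM. Rarres2, which encodes the secreted protein chemerin, had 1041 and 1078 CPM against 145 and 122 CPM. The gene that fell was Kcne4, a potassium channel subunit, with 0.929 and 0 CPM against 17.7 and 10.6 CPM. Against fibroblast-gated cells 22 of 24 rose and Kcne4 again fell.

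Among the 10 genes with the lowest p in each direction, those outside the lists above were again near 0 outside the epicardial sums where they rose. Tm4sf5, a tetraspanin-like membrane protein, had 295 and 312 CPM against 0.455 and 0.126 CPM. Clic3, an intracellular chloride channel, had 153 and 226 CPM against 0.136 and 0.042 CPM. Bst1 (CD157), an ectoenzyme, had 156 and 239 CPM against 0.955 and 0.504 CPM, and Fgfbp1, which carries fibroblast growth factors, had 93.8 and 245 CPM against 0.182 and 0 CPM. Each of these 4 genes was also called by DESeq2. The genes of lowest p that fell were led by stromal and contractile genes. Postn (periostin), a matrix protein of fibroblasts and valves, had 42.3 and 19.9 CPM in epicardial cells against 1106 and 1557 CPM. Acta2, smooth muscle actin, had 18.6 and 26.5 CPM against 579 and 755 CPM, and Tagln (transgelin) had 11.6 and 3.32 CPM against 333 and 406 CPM. Rgs5, a pericyte gene, had 1.86 and 0 CPM against 144 and 194 CPM.

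Transcription factors of the epicardial lineage split into both directions. Of 20 tested, 7 rose and 6 fell (DESeq2: 6 and 4). Bnc1 (basonuclin 1), a zinc finger factor of epithelia, had 115 and 69.7 CPM in SAN and AVN/His epicardial cells against 0.318 and 0.042 CPM, and its relative Bnc2 had 22.8 and 19.9 CPM against 1.14 and 0.673 CPM. Tbx18, the T-box factor of the epicardium and sinus horn, had 335 and 282 CPM against 42.0 and 44.9 CPM, a fitted log2 fold change of 2.90 with a standard error of 0.19 (adjusted p = 6.73e-48 by edgeR). Klf4, an epithelial Krüppel-like factor, had 282 and 289 CPM against 56.0 and 51.9 CPM. Tcf21, which marks epicardial cells bound for a fibroblast fate, ran the other way, with 46.4 and 63.0 CPM in epicardial cells against 206 and 130 CPM. Among other factors that fell, Sox9 had 14.9 and 23.2 CPM against 86.7 and 178 CPM, and Tbx20 had 65.0 and 56.4 CPM against 199 and 350 CPM. Gata4, an early regulator of the proepicardium, was not called against all other cells, at 55.7 and 46.4 CPM against 66.0 and 73.6 CPM. Relative to fibroblast-gated cells 8 of 19 rose and 4 fell (DESeq2: 5 and 3), and Tbx18 was again higher, against 68.7 and 63.2 CPM.

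Genes that make and carry retinoic acid rose, and no receptor gene of the pathway did. Aldh1a2 (Raldh2), the main retinoic acid synthase of the embryonic epicardium, had 361 and 282 CPM in SAN and AVN/His epicardial cells against 11.7 and 23.0 CPM, a fitted log2 fold change of 4.39 with a standard error of 0.21 (adjusted p = 3.04e-92 by edgeR), and 87.7% and 92.0% of members carried a UMI. Aldh1a1, a second synthase, had 79.0 and 103 CPM against 4.41 and 10.2 CPM. Rbp4, the extracellular retinol carrier, had 83.1 and 119 CPM against 3.78 and 2.56 CPM. Rdh10, which oxidizes retinol, had 31.1 and 79.6 CPM against 11.3 and 13.3 CPM. These 4 were all the genes of the list that rose among 15 tested, and 5 fell (DESeq2: 4 and 1). The retinoic acid receptor Rarb, with 18 UMIs in SAN and 2 in AVN/His members, fell by edgeR alone. Cyp26b1, which degrades retinoic acid, had no UMI in 196 members and was at least 4.79-fold lower than in the other cells, by a floor of 3 UMIs over all members. Relative to fibroblast-gated cells the same 4 genes rose, Rdh10 by edgeR alone (DESeq2 adjusted p = 0.107).

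Several ligands known from epicardial signaling to myocardium rose, and the receptors that rose were few. Of 35 tested growth factors and ligands 15 rose and 11 fell (DESeq2: 12 and 5). Fgf9, which acts on cardiomyocyte growth, had 33.0 and 33.2 CPM in SAN and AVN/His epicardial cells against 0.318 and 1.51 CPM. Fgf1 had 16.7 and 33.2 CPM against 0.773 and 0.799 CPM, and Fgf18 had 16.7 and 19.9 CPM against 1.14 and 2.14 CPM. The secreted semaphorin Sema3c had 91.5 and 96.2 CPM against 6.05 and 10.0 CPM, and Sema3d had 216 and 222 CPM against 21.8 and 24.5 CPM. Pdgfa, a platelet-derived growth factor, had 103 and 113 CPM against 20.7 and 26.8 CPM. Ligands that fell included Cxcl12, a chemokine of coronary development, at 13.0 and 19.9 CPM against 59.1 and 98.6 CPM, and Slit2, an axon guidance ligand, at 17.6 and 9.95 CPM against 74.6 and 45.7 CPM. Of 33 tested receptors 7 rose and 12 fell (DESeq2: 2 and 7). Met, the hepatocyte growth factor receptor, had 28.3 and 43.1 CPM in epicardial cells against 1.82 and 0.883 CPM, and 1 UMI among all fibroblast-gated cells. Pdgfrb, the receptor of mural cells, had 10.7 and 6.63 CPM against 67.6 and 69.9 CPM, and Notch1 had 6.97 and 9.95 CPM against 74.0 and 56.4 CPM.

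**Figure D3:**
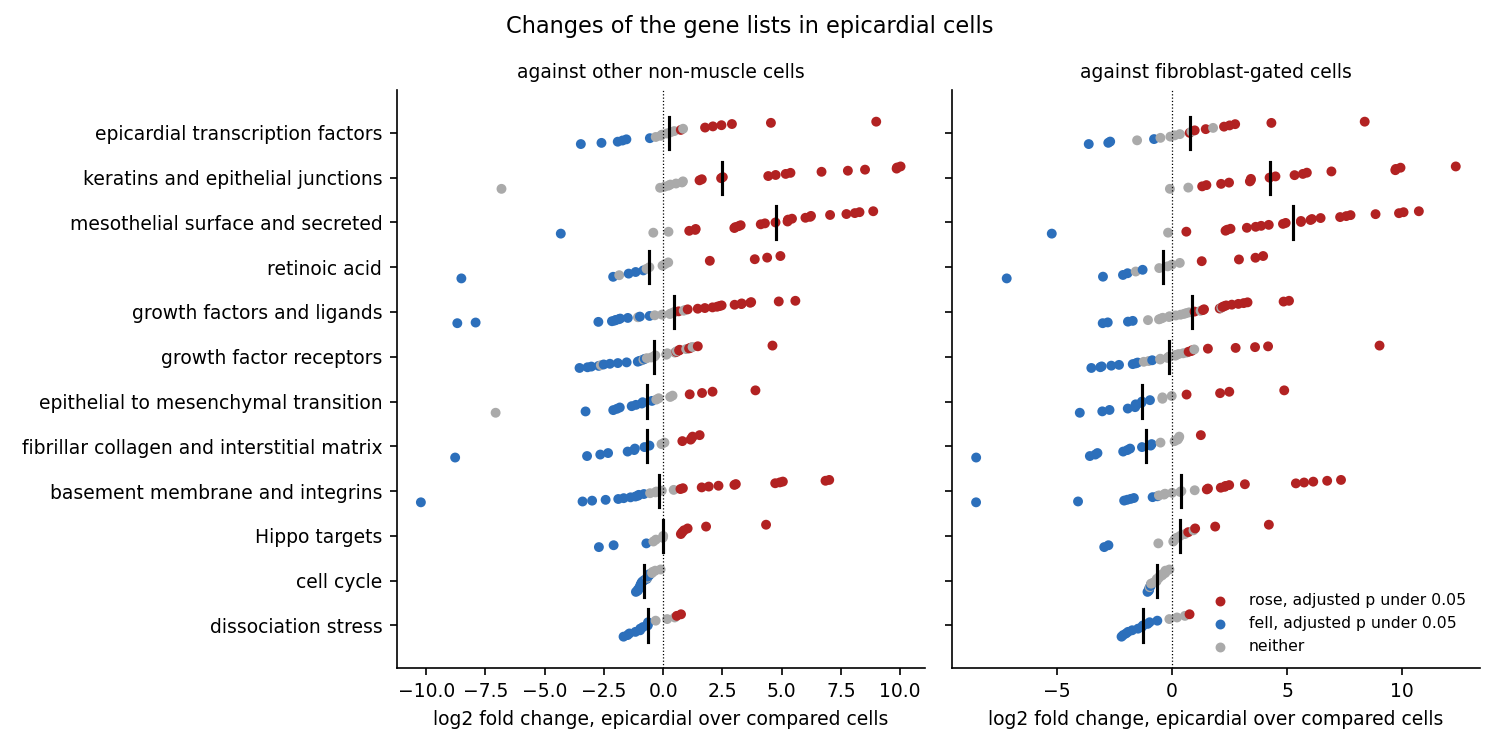
Log2 fold change of each tested gene (points) of 12 gene lists, epicardial cells over all other non-muscle cells (left) and over fibroblast-gated cells (right), colored by the edgeR call at an adjusted p under 0.05, with a black bar at the list's median. The medians of keratins and of mesothelial surface genes lie at 2.48 and 4.74 on the left, and those of cell cycle and stress genes lie at -0.83 and -0.65; fitted values of genes without a UMI in 1 class, at the far left, are not bounds.

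More genes of epithelial-to-mesenchymal transition fell than rose in the epicardial cells. Of 18 tested, 4 rose and 9 fell against all other non-muscle cells (DESeq2: 3 and 5), and 4 of 17 rose and 10 fell against fibroblast-gated cells (DESeq2: 3 and 8). The repressors of epithelial genes Snai1 and Snai2 fell, Snai1 with 10.2 and 6.63 CPM in SAN and AVN/His epicardial cells against 40.5 and 53.1 CPM and Snai2 with 10.7 and 0 CPM against 33.3 and 44.4 CPM. Zeb1 and Zeb2, repressors of the same kind, had 39.9 and 46.4 CPM and 36.7 and 46.4 CPM in epicardial cells, against 103 and 124 CPM and 157 and 124 CPM in the other cells. Mmp2, a matrix metalloprotease, had 21.4 and 0 CPM against 150 and 223 CPM, and was called by edgeR alone (DESeq2 adjusted p = 0.157). The genes that rose were Cdh11, a cadherin of mesenchyme, S100a4, Sparc and Thy1. Cdh11 had 280 and 312 CPM against 69.1 and 76.6 CPM, and S100a4, a calcium-binding protein, had 57.1 and 99.5 CPM against 4.73 and 5.51 CPM.

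The interstitial collagens Col1a1, Col1a2 and Col3a1 were high in the epicardial cells and were called in neither direction against fibroblast-gated cells. Col1a1 had 4900.5 and 3662 CPM in SAN and AVN/His epicardial cells against 2261 and 1553 CPM in other non-muscle cells, which is a fitted log2 fold change of 1.24 with a standard error of 0.13 (adjusted p = 1.30e-20 by edgeR). In fibroblast-gated cells it had 4921 and 2587 CPM, and the log2 fold change against these was 0.28 with a standard error of 0.16 (adjusted p = 0.243 by edgeR). Col1a2 and Col3a1 gave the same calls. Of 16 interstitial matrix genes 5 rose and 9 fell against all other cells (DESeq2: 5 and 7). Vcan (versican), a proteoglycan of loose matrix, had 17.6 and 19.9 CPM in epicardial cells against 94.1 and 220 CPM, and Col6a3, a chain of collagen VI, had 15.3 and 6.63 CPM against 137 and 99.1 CPM. Has2, a hyaluronan synthase, had no UMI in any member, at least 5.95-fold lower than in the other cells. Against fibroblast-gated cells only Fbln2 (fibulin 2) rose and 10 of 16 fell, by both tools.

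Basement membrane and integrin genes moved in both directions. Of 28 tested, 12 rose and 11 fell (DESeq2: 9 and 8). Fras1 and Frem2, partners in the Fraser complex that anchors epithelia to the basement membrane, had 248 and 235 CPM and 48.8 and 33.2 CPM in SAN and AVN/His epicardial cells, against 3.23 and 0.841 CPM and 1.36 and 1.26 CPM. Frem1, another gene of that complex, ran the other way, with 3.72 and 0 CPM in epicardial cells against 17.9 and 14.7 CPM, and fell by edgeR alone (DESeq2 adjusted p = 0.0789). Npnt (nephronectin), an integrin ligand of basement membranes, had 273 and 289 CPM against 2.32 and 2.77 CPM, a fitted log2 fold change of 6.85 with a standard error of 0.24 (adjusted p = 4.48e-170 by edgeR). Itga3, a laminin receptor of epithelia, had 43.2 and 26.5 CPM against 1.14 and 1.43 CPM. Lama5, named by its rank against fibroblast-gated cells, had 58.5 and 59.7 CPM against 2.23 and 2.44 CPM. Of the integrins that fell, Itga8 had 3.72 and 3.32 CPM against 38.9 and 47.5 CPM. Itga4, a subunit required for the epicardium to form in mice, had no UMI among the 2454565 UMIs of all members, at least 9.94-fold lower than in the other cells.

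Hippo pathway genes went both ways, and none of the cell cycle genes rose. Of 13 tested Hippo genes 6 rose and 3 fell (DESeq2: 2 and 2). Cyr61 and Ctgf, matricellular targets of YAP, fell by both tools. Cyr61 had 189 and 79.6 CPM in SAN and AVN/His epicardial cells against 867 and 333 CPM, and Ctgf had 6.50 and 6.63 CPM against 40.4 and 65.4 CPM. Wwc1 (Kibra) and Wwc2, upstream regulators of the pathway, rose by both tools, Wwc1 with 24.6 and 29.9 CPM against 1.14 and 1.77 CPM and Wwc2 with 108 and 119 CPM against 34.5 and 31.5 CPM. Of 20 cell cycle genes 0 rose and 15 fell by edgeR against all other non-muscle cells, but DESeq2 called 2 and the fit without the library block called 4. Hmgb2, a chromatin protein of dividing cells, was among both, with 292 and 328 CPM against 627 and 736 CPM. The 20 genes together summed to 1011 and 1575 CPM in SAN and AVN/His epicardial cells, against 2013 and 2317 CPM in other non-muscle cells and 2011 and 2006 CPM in fibroblast-gated cells. With every cell thinned to 1500 UMIs, at least 2 of the 20 genes were seen in 17.5% of SAN members (12.2 to 24.1) against 33.5% (31.6 to 35.3) of the other cells. The AVN/His share, 20.0% of 25 members (6.83 to 40.7), overlapped that of its other cells, 32.1% (30.4 to 33.9).

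Genes induced by tissue dissociation also moved with the class. Of 15 tested, 2 rose and 10 fell by edgeR against other non-muscle cells, and DESeq2 called 5 that fell and none that rose. Without the library block none was called. Junb had 209 and 59.7 CPM in SAN and AVN/His epicardial cells against 641 and 232 CPM, so the 2 libraries differed by a fold of the same order as the classes. The part of dissociation in the other results was not tested.

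Most markers of other cell types fell in the epicardial cells. Against other non-muscle cells, 6 of 6 endothelial, 5 of 6 mural, 5 of 6 macrophage and 5 of 6 fibroblast markers fell by edgeR, and DESeq2 called 5, 4, 4 and 5 of them. Summed over its 6 genes, the endothelial list had 147 and 92.9 CPM in SAN and AVN/His members against 973 and 884 CPM, and the mural list had 38.6 and 19.9 CPM against 329 and 388 CPM. The macrophage list had 52.9 and 13.3 CPM against 335 and 245 CPM, with 5 of its 6 genes at 0 in the AVN/His members. The macrophage marker that did not fall was Csf1r, the receptor of macrophage colony-stimulating factor, with 45.1 and 13.3 CPM in epicardial cells against 30.5 and 13.8 CPM, and 0.622 and 0.237 CPM in fibroblast-gated cells. A Csf1r UMI was present in 60 of 196 members, and 52 of those 60 had no UMI of C1qa, C1qb, Fcer1g, Adgre1 or Cd68. Those 52 held 83 of the 101 Csf1r UMIs. Kdr, the VEGF receptor, fell against all other cells (39.9 and 43.1 CPM in epicardial cells against 123 and 125 CPM) but rose by both tools against fibroblast-gated cells (2.86 and 1.66 CPM). Of 35 members with a Kdr UMI, 26 had none of the other 5 endothelial markers and held 41 of the 99 Kdr UMIs, so most Kdr UMIs lay in the few members that carried another endothelial marker. Of the 6 endothelial markers 4 rose by edgeR against fibroblast-gated cells, and 1 by DESeq2. Cells that passed an endothelial or macrophage gate had been left out of the fibroblast-gated class, but not out of the members. Low levels of Kdr, Csf1r and the other markers of these gates in fibroblast-gated cells are thus in part by construction. Of the endocardial markers, 1 rose and 3 fell against all other cells (DESeq2: 1 and 3). Npr3, a natriuretic peptide clearance receptor, had 155 and 153 CPM in epicardial cells against 25.6 and 6.72 CPM in fibroblast-gated cells, where it rose by both tools, but against all other non-muscle cells (167 and 24.8 CPM) it was not called. Tmem108, a membrane protein, was the one that rose, with 190 and 315 CPM in epicardial cells against 101 and 70.4 CPM. Plvap, which marks fenestrated endothelium, had 5.11 and 3.32 CPM against 128 and 25.6 CPM.

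A single gene, Dcn, held most of the fibroblast list's summed level in the epicardial cells (2799 and 2876 CPM in SAN and AVN/His members against 3956 and 5225 CPM in the other cells). Dcn (decorin), a small proteoglycan, had 2573 and 2710 CPM in SAN and AVN/His epicardial cells against 1756 and 2446 CPM in other non-muscle cells and 4129 and 4200 CPM in fibroblast-gated cells. Dcn rose against all other cells by edgeR (adjusted p = 0.00819) and was not called by DESeq2 (adjusted p = 0.342). Pdgfra, the receptor of cardiac fibroblasts, had 15.8 and 13.3 CPM against 72.8 and 84.7 CPM, and Lum (lumican) had 101 and 66.3 CPM against 394 and 685 CPM. A Dcn UMI was present in 98.2% of SAN and 100% of AVN/His members, and Dcn is 1 of the 6 genes of the gate that 57 members passed.

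Myl7, the atrial myosin light chain, was present in the epicardial cells of both libraries at similar levels. It had 1457.5 CPM (95% Poisson interval 1407 to 1509) in SAN members and 1350 CPM (1222 to 1488) in AVN/His members, against 739 and 47.5 CPM in other non-muscle cells. Macrophage-gated cells, which should lack the gene and serve as a measure of background, had 463 CPM in the SAN library and 25.5 CPM in the AVN/His library. The SAN background was thus high and the AVN/His background low, while the epicardial level was about equal in both. A Myl7 UMI was found in 99.4% of 171 SAN and 92.0% of 25 AVN/His members, and after thinning to 1500 UMIs in 71.9% and 72.0%, against 43.5% and 6.35% of other non-muscle cells and 49.7% and 6.56% of macrophage-gated cells, whose unthinned median depths were 5296 and 6998 UMIs. Other muscle genes were set beside Myl7, some near and some above the level of macrophage-gated cells. For every 100 Myl7 UMIs, the AVN/His members held 9.09 of Actc1, 3.69 of Myl4 and 0 of Nppa, against 608, 158 and 16.7 in AVN/His macrophage-gated cells. The latter ratios are imprecise, since those 61 cells held 12 Myl7 UMIs (95% Poisson interval 13.2 to 44.5 CPM) and 2 of Nppa. In the SAN library the members held 20.6 of Actc1, 25.1 of Myl4 and 26.9 of Nppa, against 47.4, 50.9 and 94.9. Tnni1, the slow skeletal troponin I of the fetal heart, was above the macrophage-gated level in both libraries. It had 287.5 and 222 CPM in SAN and AVN/His members against 48.5 and 69.99 CPM. Other non-muscle cells had 92.4 and 188 CPM of Tnni1, the latter inside the Poisson interval of the AVN/His members (172 to 282 CPM). Tnni1 had 19.7 and 16.5 UMIs per 100 of Myl7 in the members. Tnnt2, a muscle score gene given as a description, had 349 and 335 CPM in SAN and AVN/His members against 144 and 136 CPM. Other non-muscle cells had 217 and 439 CPM of Tnnt2, so the AVN/His members lay below theirs. Per 100 UMIs of Myl7 the members held 23.96 and 24.8 of Tnnt2. As a test, Myl7 rose by edgeR with a fitted log2 fold change of 2.92 and a standard error of 0.18 (adjusted p = 5.68e-55), but the libraries differed widely (1.03 in the SAN, 4.87 in the AVN/His) and DESeq2 did not call it (adjusted p = 0.266). Whether the Myl7 UMIs are transcribed in the members was not tested.

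**Figure D4:**
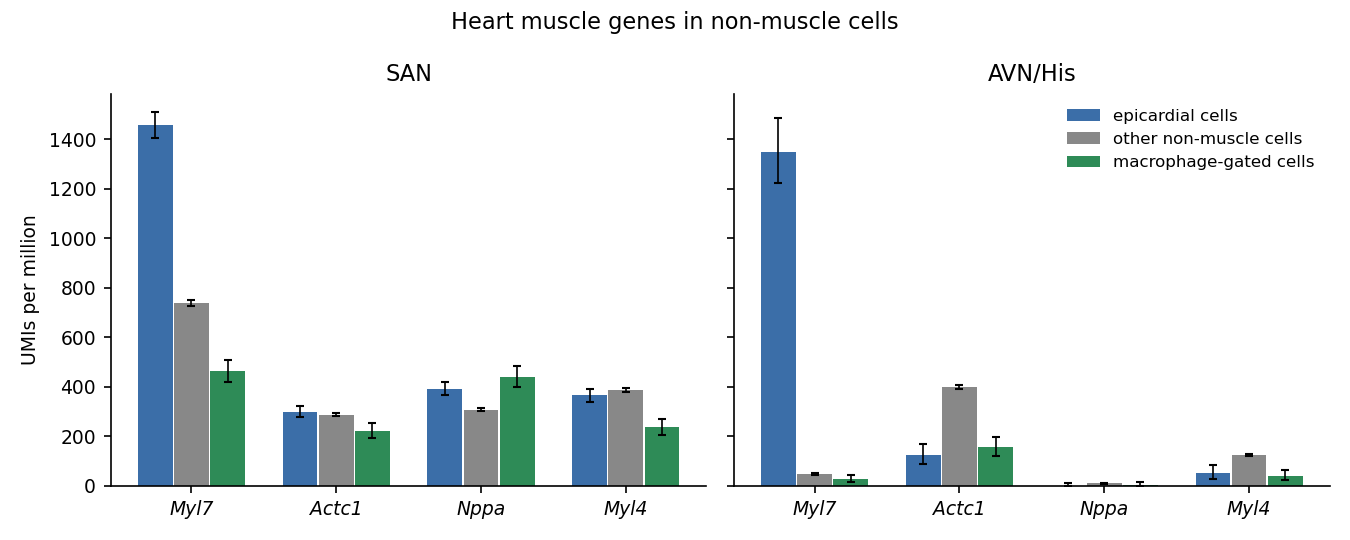
Summed level in CPM of Myl7, Actc1, Nppa and Myl4 in epicardial cells, other non-muscle cells and macrophage-gated cells of the SAN (left) and AVN/His (right) libraries, with 95% Poisson intervals of the sums as whiskers. In the AVN/His panel Myl7 stands at 1350 in epicardial cells and at 47.5 and 25.5 in the other 2 classes, while Actc1, Nppa and Myl4 are no higher in epicardial cells than in macrophage-gated cells beyond their intervals.

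Members varied among themselves more in some genes than in others. In SAN members the per-cell level of Rspo1 had quartiles of 239, 435 and 702 CPM and that of Tbx18 139, 290 and 495 CPM. Igfbp6 was broader, with quartiles of 0, 220 and 1213 CPM, and Dmkn was seen in 36.8% of cells only. SAN members that passed a gate of another type were deeper, with a median of 16872.5 UMIs in 54 cells against 8348 in the other 117, while the AVN/His medians were 8165 UMIs in 9 gated members and 8834 in the other 16. In the 54 SAN members Krt7 had 342 CPM, against 467 CPM in the 117 without a gate. Krt8 had 130 CPM against 218 CPM, Krt18 238 CPM against 324 CPM and Aldh1a2 295 CPM against 407 CPM, so these were lower in the gated members too. Rspo1 had 456 CPM against 477 CPM and Tbx18 321 CPM against 345 CPM. Igfbp6 had 846 CPM against 828 CPM and Bnc1 115 CPM against 116 CPM. The levels of Rspo1, Tbx18, Igfbp6 and Bnc1 were thus close in both sets. Genes that the gates use differed by construction, Tcf21 with 76.4 CPM against 25.3 CPM and Postn with 89.9 CPM against 8.71 CPM. Fabp4, an endothelial fatty acid carrier, was concentrated in few cells, with 40.1% of its SAN UMIs in a single member and 17.4 CPM in the 117 without a gate.

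SAN-region epicardial cells could be compared only with the 25 of the AVN/His region, since the ventricular libraries held none. With 1 library on each side there is no test, and genes are described by ratios of at least 2 with exact intervals that cover counting error only. Of 7611 genes with at least 30 UMIs in the members, 635 were at least 2-fold higher in SAN members (8.34%) and 182 at least 2-fold lower (2.39%). The counting interval of the ratio excluded 1 for 179 and 121 of these genes. SAN members held 2153061 UMIs in all and AVN/His members 301504. Genes counted as higher in SAN near the limit of 30 UMIs therefore rest on few AVN/His UMIs. Of the 635 and 182 genes, 42 and 14 were also 2-fold different in the same direction in the other non-muscle cells. By any amount, 330 and 124 differed in that direction there. The share of all 7611 genes with such differences was not counted, so these overlaps are not read as high or low. Some of the identity genes were close: Tbx18 had 335 CPM in SAN and 282 CPM in AVN/His members, Aldh1a2 361 and 282 CPM, Rspo1 469 and 494 CPM, and Igfbp6 836 and 809 CPM. Others were at least 2-fold lower in SAN members. Rdh10 had 31.1 and 79.6 CPM (interval of the ratio 0.242 to 0.652). Dmkn had 152 and 371 CPM, with 57.1% of its AVN/His UMIs in 1 cell.

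**Figure D5:**
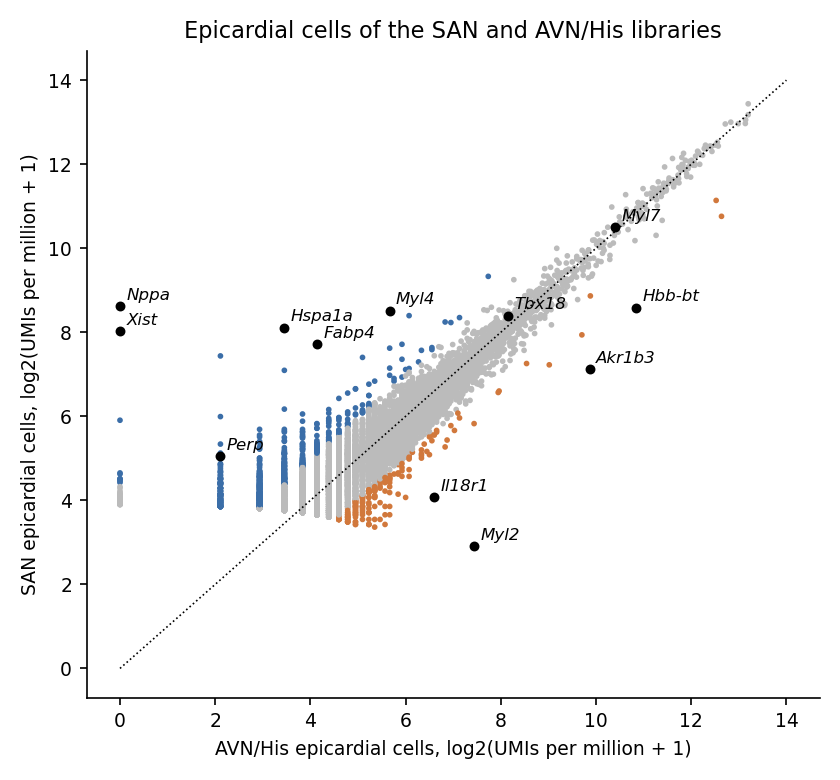
Level of each of 7611 genes in SAN epicardial cells (y axis) against AVN/His epicardial cells (x axis), as log2(CPM + 1), with genes at least 2-fold higher in the SAN in blue, at least 2-fold lower in orange, and named genes in black. Tbx18 and Myl7 lie near the diagonal, Nppa and Xist have no UMI in the AVN/His members, and Akr1b3 and Myl2 lie below the diagonal.

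Some of the genes with extreme ratios differed in the same direction by at least 2-fold in the other non-muscle cells. Nppa, which encodes atrial natriuretic peptide, had 392 CPM in SAN and 0 CPM in AVN/His members, at least 39.4-fold higher by a floor of 3 UMIs in the AVN/His members, beside 307 and 9.96 CPM in other non-muscle cells. Sln (sarcolipin), an atrial regulator of the calcium pump, had 172 and 3.32 CPM in members and 168 and 7.44 CPM in other cells, and its ratio rests on 1 UMI in the AVN/His members (51.95, interval 9.27 to 2057.5). Myl2, the ventricular myosin light chain, ran the other way with 6.50 CPM in SAN and 172 CPM in AVN/His members, beside 5.14 and 631 CPM in other cells, and it was found in 23 of 25 AVN/His members with at most 4 UMIs in a cell. Xist, which silences the inactive X chromosome in female cells, had 261 and 0 CPM in members and 277 and 0.294 CPM in other cells, so region and embryo sex cannot be told apart. Hspa1a, a heat shock gene, had 275 and 9.95 CPM in members, beside 470 and 226 CPM in other cells.

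Other genes with extreme ratios were within 2-fold in the other non-muscle cells, ran the other way there, or were too low there to compare. Akr1b3, an aldose reductase, had 139 CPM in SAN and 939 CPM in AVN/His members (ratio 0.148, interval 0.125 to 0.175), beside 67.6 and 111 CPM in the other non-muscle cells. It was found in 116 of 171 SAN and 18 of 25 AVN/His members, and the largest single cell held 21.2% of its AVN/His UMIs. Il18r1, a subunit of the interleukin 18 receptor, had 15.8 and 96.2 CPM in members and 0.045 and 0 CPM in other cells, but 1 cell held 51.7% of its AVN/His UMIs. Hes1, a Notch target, had 136 and 9.95 CPM in members beside 284 and 170 CPM. Perp, a desmosomal membrane protein, had 32.0 and 3.32 CPM in members beside 7.23 and 8.99 CPM in the other cells, from 1 UMI on the AVN/His side. Fabp4 had 209 and 16.6 CPM in members beside 715 and 2161 CPM in the other cells. Hbb-bt, a beta globin gene, had 383 and 1834 CPM in members, and a single AVN/His member held 96.9% of the AVN/His UMIs. The other non-muscle cells had 1818 and 876 CPM of Hbb-bt.

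Among genes that mark heart regions, few separated the 2 sets of epicardial cells apart from muscle genes. The cardiac factors Hand2 (59.9 and 39.8 CPM), Nr2f2 (68.3 and 53.1 CPM) and Tbx20 (65.0 and 56.4 CPM) were within 2-fold between SAN and AVN/His members. Tbx5 had 23.2 CPM and 9.95 CPM, a ratio of 2.33 whose interval (0.754 to 11.7) includes 1. Shox2 and Tbx3, factors of the node, had 4 and 3 UMIs in all SAN members and none in the AVN/His members, and Hcn4, the pacemaker channel, had 3 and 0, too few to compare. Hand1 and Irx1 had no UMI in any member. Of the muscle genes, Myl4 was higher in SAN members (365 and 49.8 CPM) and Myl3 (15.8 and 63.0 CPM) and Myh7 (9.75 and 36.5 CPM) were lower. In the other non-muscle cells Myl4 had 388 and 124 CPM, Myl3 15.2 and 301 CPM, and Myh7 7.42 and 64.2 CPM. Myl7 had 1457.5 and 1350 CPM in members (ratio 1.08, interval 0.973 to 1.20) beside 739 and 47.5 CPM in the other cells.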

How the data were processed

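Single-cell RNA was captured on the 10x platform from 4 microdissected regions of E16.5 hearts of CD1 mice, 1 library per region. The authors deposited UMI counts per gene and barcode for 27998 genes, made with Cell Ranger on mm10 per the submitters' processing notes; its version and the gene annotation are not given in the sources used here. The count columns are not normalized. Barcodes with at least 500 genes were kept (21035 cells), and doublets were scored but kept.

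The members and the gene lists were chosen with earlier results of these data known. UMI counts were summed per library and class and tested with edgeR 4.0.16 (R 4.3.3; TMM, filterByExpr, quasi-likelihood test, library as a block, Benjamini-Hochberg over all genes tested, threshold 0.05). Each library gives both sums of a comparison, which is where the pairing comes from. Only the SAN and AVN/His libraries reached 10 members, so 4 sums entered each fit. DESeq2 1.42.0 was the other tool. The 12 rule genes were never tested, nor were the 6 fibroblast gate genes against fibroblast-gated cells. Fibroblast- and macrophage-gated cells had at least 3 of 6 markers of that type and passed no other gate. SAN and AVN/His members were compared by CPM ratios without a test, among genes with at least 30 UMIs. Intervals are exact at 95% (binomial or Poisson) and the floor for a count of 0 is 3 UMIs. Cells were thinned to 1500 UMIs where shares of cells are given as thinned. The median log2 fold change over all genes tested was -0.06 against other non-muscle cells and -0.03 against fibroblast-gated cells.

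Genes were named by rule: from each list up to 4 with the highest and 3 with the lowest fold change among those with a UMI in at least 10% of the cells of either class, the 10 genes of lowest p in each direction leaving out hemoglobin, ribosomal and mitochondrial genes, the 10 largest and smallest SAN to AVN/His ratios, and the regional list. Cldn15, Cdh3, Crb2, Cdh1, Pdpn, Rarres2, Gata4, Cyp26b1, Has2, Sema3d, Zeb1, Zeb2, Itga4, Rarb, Actc1, Tnni1 and the comparison of muscle genes with Myl7 were chosen after their values were seen. Coordinates come from GENCODE vM21 (27722 of the IDs matched) and promoters from RefSeq (GRCm38.p6). Figures and sums were made with Python 3.11.15, scanpy 1.11.5 and matplotlib 3.10.9.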

Additional observations from a re-analysis of the deposited data

Results flagged for a closer look

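In the SAN library 9 cells had at least 3 of the 7 mesothelial genes and a muscle score of at least 1.5, and they entered no comparison. Their scores lay between 1.68 and 2.90, their median depth was 16125 UMIs, and 6 of the 9 had a keratin UMI.

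Against fibroblast-gated cells, the single-library log2 ratios of 2 named genes pointed in opposite directions in the libraries. For Cdc20, a mitotic activator, the ratio was -0.80 in SAN and 0.76 in AVN/His epicardial cells. For Col3a1, an interstitial collagen, it was -0.063 in SAN and 0.67 in AVN/His epicardial cells. Neither difference between the libraries was tested.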

How the results depend on the processing

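Against all other non-muscle cells DESeq2 called 839 genes that rose and 557 that fell, where edgeR called 1694 and 1669. Against fibroblast-gated cells DESeq2 called 843 and 385, where edgeR called 1532 and 1125. Without the library block, which pairs the sums of a library, 1152 genes rose and 827 fell in the first comparison and 1094 and 535 in the second. The cause of these lower counts was not tested. A 3-fold limit in place of 2-fold left 229 genes higher and 28 lower in SAN than in AVN/His members, and a minimum of 100 UMIs left 102 and 26, both smaller by construction. With the 7-gene rule applied after thinning to 1500 UMIs, the members were 3.82% of SAN and 0.530% of AVN/His non-muscle cells. Mylk, a smooth muscle kinase, rose by edgeR against all other cells but had a log2 ratio of -0.24 without the SAN library and of 1.82 without the AVN/His library. The other alternatives (at least 4 of 7 genes, a stricter muscle limit, doublets, gated members or hemoglobin-rich barcodes left out, no filter on low counts, depth-matched cells in the first comparison, and, chosen after seeing the data, cells with 2 of 7 genes left out) kept the counts of calls within 1.5 times. Depth-matched fibroblast-gated cells could not be drawn in the SAN library, so that alternative was not run. Leaving out the SAN or the AVN/His library leaves no residual degree of freedom and gives no count of calls, and without AVN/His the regional comparison has no value. Depth limits the 25 AVN/His members most, where 3 UMIs correspond to 9.95 CPM.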
